A study of Macaca fascicularis with 3 samples.

Results

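The cells described here are the cynomolgus monkey (Macaca fascicularis) germ cells with the most POU5F1 mRNA in reconstituted ovaries, in which germ cells made from embryonic stem cells grow among ovarian somatic cells of mouse embryos. They were chosen from the counts themselves. A barcode was taken as a monkey germ cell if it held at least 10000 unique molecular identifiers (UMIs, the tags that count mRNA molecules) and had 2 to 20% of them in the 13 protein-coding genes of the mitochondrial genome. A germ cell was called POU5F1-high if POU5F1 made up at least 200 CPM (counts scaled to a common total of UMIs, the usual counts-per-million unit). This gave 464 cells among 2186 germ cells and 7827 deposited barcodes. The other 1722 germ cells, under 200 CPM, are the cells they are set against. POU5F1, the UMI totals and the mitochondrial share chose the cells, so the values of these measures are a description and carry no test.

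Single-cell RNA was counted with 10x Genomics 3' chemistry in 3 libraries, which differ in the age of the mouse ovarian cells: E13.5, E14.5 or E15.5, counted in embryonic days, with 1 library each. Where a group has 3 values, they follow the mouse age, youngest first. The monkey cells are the same in all 3: derivatives of the embryonic stem cell line 15XRi-AGVT#7, labelled wildtype, with a TFAP2C-EGFP and a DDX4-tdTomato reporter, at the point labelled ag49+52. Live cells positive for either reporter were sorted and then mixed with sorted mouse cells, so TFAP2C and DDX4, whose reporters set the gate, are not free readouts, and the ratio of monkey to mouse cells was set by the mixing. POU5F1-high cells numbered 71 in the E13.5 library, 139 in E14.5 and 254 in E15.5, and held 4481107, 6955000 and 14102393 UMIs in sum. Their single cells had a median of 62593, 47127 and 51545.5 UMIs, against 55090.5, 41056 and 47427 in other germ cells of the same libraries.

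POU5F1 (OCT4) is a homeodomain transcription factor of pluripotent cells that the germline keeps. Primate primordial germ cells are specified with SOX17, TFAP2C and PRDM1, and express NANOG and NANOS3. As oogonia mature in the fetal ovary they lose POU5F1 and these early genes, keep or gain RNA-binding proteins such as DAZL and DDX4, and in response to retinoic acid and BMP signals start STRA8 and the genes of meiotic prophase.

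Before any comparison, 1 property of the barcodes has to be stated. The 3 libraries had 686 barcode sequences that were listed in more than 1 of them. Such a shared barcode belonged to 10 of 464 POU5F1-high cells and to 659 of 1722 other germ cells. By library, they made up 2.82%, 0% and 3.15% of POU5F1-high cells, against 56.9%, 14.6% and 39.1% of other germ cells. No barcode was a germ cell in more than 1 library: the copy in another library had a median of 1.21% to 2.59% of the germ cell's own UMIs. What made the barcodes shared was not tested. Levels below include them, and counts of cells and of genes called are also given without them. Of 20 gene lists tested between POU5F1-high and other germ cells, 18 kept both counts within 2 genes without the shared barcodes, and the 2 that did not are named where they come.

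The label of early oogonia was checked against TFAP2C, NANOS3, SOX17 and NANOG, for which no test is given here. NANOG, a pluripotency factor that primate germ cells express, summed to 259, 288 and 245 CPM in POU5F1-high cells, and to 15.47, 16.5 and 16.8 CPM in other germ cells. TFAP2C, the AP-2 factor behind the EGFP reporter, stood at 100.4, 98.1 and 125 CPM in POU5F1-high cells and at 8.18, 9.26 and 10.8 CPM in other germ cells. NANOS3, an RNA-binding protein that protects migrating germ cells, had 261, 309 and 283 CPM in POU5F1-high cells, against 40.7, 52.5 and 61.1 CPM in other germ cells. For these 3 genes the groups were far apart in every library. SOX17, the endoderm and germ cell specifier, was at 121, 137 and 143 CPM in POU5F1-high cells and at 34.1, 40.1 and 37.3 CPM in other germ cells, a narrower gap.

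Most POU5F1-high cells carried these genes together. A UMI of each of the 4 was found in 83.1%, 85.6% and 90.9% of POU5F1-high cells, against 12.9%, 7.81% and 10.5% of other germ cells. After every cell was thinned at random to 10000 UMIs, the shares were 35.2%, 39.6% and 38.2% in POU5F1-high cells and 0.215%, 0% and 0.466% in other germ cells. The gap between the groups was thus also there at matched depth. Without the shared barcodes, all 4 genes had a UMI in 82.6%, 85.6% and 91.1% of POU5F1-high cells, against 16.4%, 8.55% and 12.6% of other germ cells. As a measure of free RNA in the droplets, mouse barcodes, which should lack monkey POU5F1, had a POU5F1 UMI in 1.86%, 2.48% and 6.31% of cells, at a median of 6457, 6699 and 5298 UMIs.

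POU5F1 levels fell into a low and a high population in each library. The median of the POU5F1-high cells was 1139, 1527 and 1213 CPM, and of the other germ cells 1256 had no POU5F1 UMI at all (767 of 1063 without the shared barcodes). Few cells lay near the threshold, with 13 at 200 to 250 CPM just inside it and 22 at 150 to 200 CPM just outside. POU5F1-high cells at 200 to 1000 CPM numbered 28, 31 and 93, and those at 1000 CPM and over 43, 108 and 161.

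**Figure D1:**
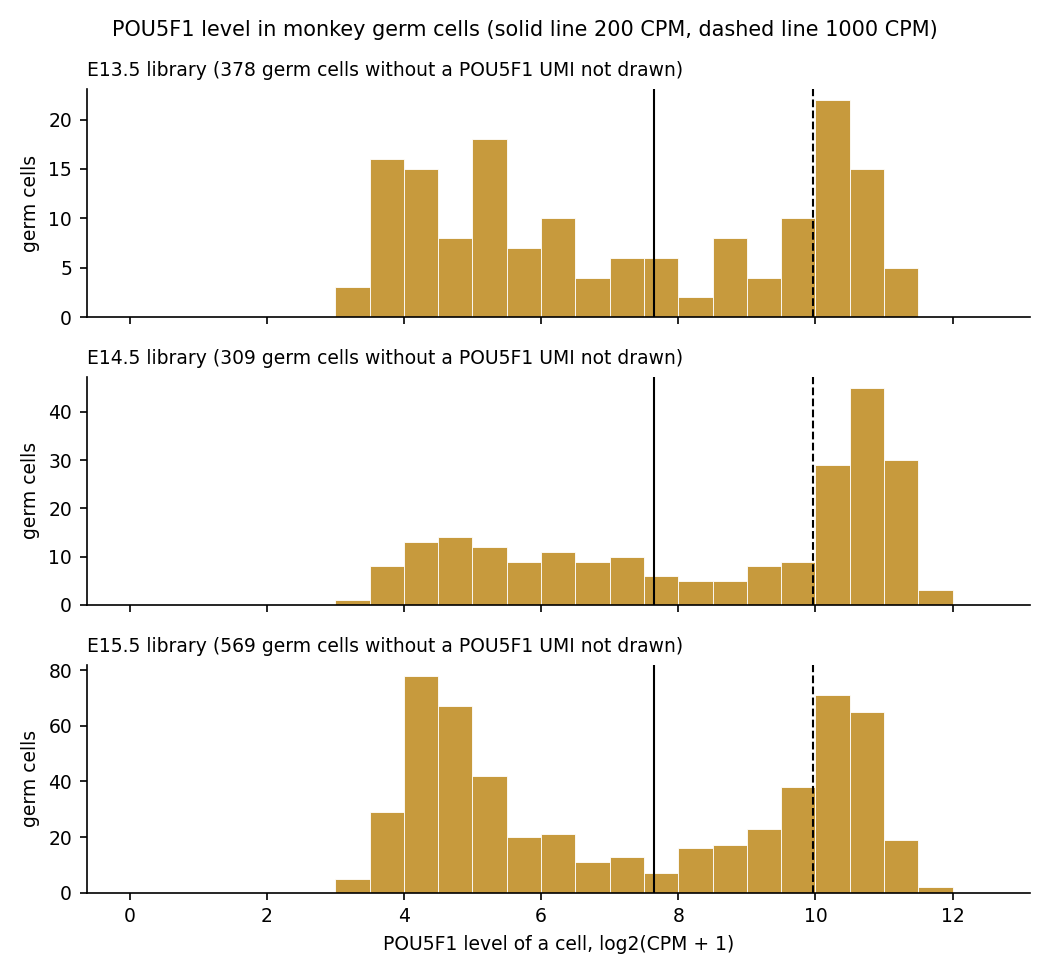
Number of monkey germ cells (y axis) by POU5F1 level, log2(CPM + 1) (x axis), in the libraries of E13.5, of E14.5 and of E15.5; 378, 309 and 569 cells without a POU5F1 UMI are not drawn. The solid line marks 200 CPM and the dashed line 1000 CPM; each library has 1 peak above the dashed line and few cells around the solid line.

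Summed markers of ovarian supporting cells and of stroma were low in both groups beside mouse barcodes, but 1 marker, GATA4, was not low in POU5F1-high cells. The 6 markers of ovarian supporting cells summed to 56.7, 64.8 and 48.9988 CPM in POU5F1-high cells and to 57.4, 74.0 and 65.8 CPM in other germ cells, against 2499 to 2833 CPM in mouse barcodes. FOXL2, the granulosa cell factor, was at 0.446, 0.144 and 0.922 CPM in POU5F1-high cells. GATA4, also known in gonadal somatic cells, was the largest of the 6 with 36.4, 32.1 and 40.0 CPM in POU5F1-high cells, against 22.2, 20.5 and 15.46 CPM in other germ cells. Mouse barcodes had 36.9, 35.5 and 32.5 CPM of GATA4, near the level of POU5F1-high cells. The 6 stroma markers summed to 18.7, 43.3 and 27.4 CPM in POU5F1-high cells and to 76.0, 76.5 and 98.1 CPM in other germ cells. Of 3 endothelial markers, PECAM1, an adhesion molecule also found on germ cells, had 26.6, 27.9 and 26.2 CPM in POU5F1-high cells and 9.82, 7.19 and 9.77 CPM in other germ cells, and KDR, the VEGF receptor, 0, 0.431 and 0.142 CPM in POU5F1-high cells and 0.856, 0.633 and 1.04 CPM in other germ cells. The third, CDH5, the cadherin of endothelial junctions, was at 6.25, 14.2 and 10.4 CPM in POU5F1-high cells and at 0.0744, 0.345 and 0.507 CPM in other germ cells, with a UMI in 25.4%, 36.0% and 30.7% of POU5F1-high cells, against 0.429%, 1.26% and 2.44% of other germ cells and 0.240%, 0.138% and 0.225% of mouse barcodes. PECAM1 and CDH5 were thus higher in POU5F1-high cells while KDR was near 0. HBB was at 0 in both groups.

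Summed markers of amnion and trophoblast and of stem cells were higher in other germ cells. The 6 markers of amnion and trophoblast summed to 70.3, 59.7 and 73.4 CPM in POU5F1-high cells and to 238, 211 and 220 CPM in other germ cells, against 17.6 to 79.5 CPM in mouse barcodes. GATA3, a GATA factor of trophoblast, made up most of this difference, with 22.8, 13.7 and 21.1 CPM in POU5F1-high cells and 159, 135.2 and 146 CPM in other germ cells. TFAP2A, an AP-2 factor of the same list, was alike in plain CPM, at 34.8, 30.1 and 37.9 CPM in POU5F1-high cells and 32.1, 31.8 and 36.4 CPM in other germ cells. The scaling introduced below raises POU5F1-high cells relative to other germ cells, so levels alike here are not alike on that scale. The 5 markers of pluripotent stem cells summed to 38.8, 33.5 and 43.7 CPM in POU5F1-high cells and to 82.7, 59.5 and 78.2 CPM in other germ cells. Of these, DNMT3B, a de novo DNA methyltransferase, was also alike in plain CPM only, at 26.1, 19.7 and 23.1 CPM in POU5F1-high cells and 25.6, 21.3 and 19.9 CPM in other germ cells. SOX2, a factor of pluripotent stem cells, was at 0.223, 0 and 0.993 CPM in POU5F1-high cells and at 17.6, 8.17 and 16.7 CPM in other germ cells. A SOX2 UMI was found in 33.9%, 19.6% and 33.4% of other germ cells, against 0.180%, 0.276% and 0.169% of mouse barcodes.

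A further measured difference runs through every comparison below. Cytoplasmic ribosomal protein genes, 83 in number and chosen after their values were seen, took a median of 28.6%, 29.2% and 26.5% of the UMIs of a POU5F1-high cell, against 14.8%, 15.9% and 14.3% in other germ cells. POU5F1-high cells also showed fewer genes at matched depth: 3374, 3181 and 3372 genes per 10000 UMIs, against 3985, 3861 and 3965 in other germ cells. Mitochondrial shares were close, at 6.94%, 6.73% and 9.14% in POU5F1-high cells and 6.68%, 6.80% and 8.86% in other germ cells. The comparison of gene levels below therefore scales each sum by trimmed means of M-values (TMM), which put the median of all genes at a log2 fold change of -0.01; plain library totals put it at -0.55. Levels in this comparison are normalised CPM on the TMM scale.

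POU5F1-high cells differed from other germ cells of their own library in most genes measured. Counts were summed per library and cell group and tested with edgeR's quasi-likelihood test, with the library as a block and Benjamini-Hochberg adjustment over 15933 genes; POU5F1 itself was left out. At an adjusted p under 0.05, 5647 genes were higher in POU5F1-high cells (35.4% of genes tested) and 5641 were lower (35.4%). Differences of at least 2-fold were fewer, with 2075 genes higher (13%) and 3123 lower (19.6%). Among all tested genes, 70.8% passed in either direction, and for 68%, whether or not they passed, the libraries of the groups did not overlap. Without the shared barcodes the counts were 5225 higher and 5201 lower, and scaling by library totals gave 2566 higher and 9620 lower. The p-values measure how repeatable a difference was over 3 libraries, which differ in mouse age and share 1 cell line; they do not test whether the groups exist, since the cells were split on POU5F1.

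The genes most enriched in POU5F1-high cells were nearly silent in the others. ABCG1, a cholesterol exporter, reached 57.4, 81.6 and 55.4 normalised CPM in POU5F1-high cells, against 0.241, 0.783 and 0.589 in other germ cells. The 3 libraries gave the same picture for ABCG1, with a log2 fold change of 6.87 ± 0.17 (SE; edgeR adjusted p = 9.5e-14). ACTG2, a smooth muscle actin, had 158, 218 and 175 normalised CPM in POU5F1-high cells and 1.59, 2.20 and 1.39 in other germ cells. GPHA2, an alpha subunit of the glycoprotein hormones, was at 277, 492 and 390 normalised CPM in POU5F1-high cells and at 5.41, 7.63 and 8.68 in other germ cells. GPHA2 was lowest in E13.5 in both groups, and the groups did not overlap, as was so for 68% of all genes tested. DNMT3L, the cofactor of the de novo DNA methyltransferases, had 98.2, 113 and 103 normalised CPM in POU5F1-high cells and 1.35, 4.31 and 3.80 in other germ cells. APOBEC3H, a cytidine deaminase that restricts retroviruses, averaged 93.3 ± 14.1 normalised CPM in POU5F1-high cells and 2.37 ± 0.28 in other germ cells (SD, n = 3 libraries each). ADTRP, FXYD3, KLK4, MYRIP, C1H1orf54, EXOC3L1 and MAL complete the 12 genes with the largest increase, with log2 fold changes of 6.37 for ADTRP to 5.23 for MAL.

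Among the genes most depleted were several HOX and other homeobox genes. HOXB5 was at 0.794, 2.41 and 3.93 normalised CPM in POU5F1-high cells and at 53.1, 54.9 and 60.4 in other germ cells. PAX6, a homeobox factor best known from eye and brain, had 1.06, 2.78 and 10.2 normalised CPM in POU5F1-high cells and 85.7, 82.3 and 110 in other germ cells. MSX1, a homeobox target of BMP signalling, was at 3.44, 3.89 and 14.8 normalised CPM in POU5F1-high cells and at 159, 120 and 125 in other germ cells, a log2 fold change of -3.87 ± 0.24 (SE; edgeR adjusted p = 1.9e-09). In all 3 genes the groups stayed far apart in every library, and the POU5F1-high cells of E15.5 held the most transcript. CRABP2, which carries retinoic acid to its nuclear receptors, had 3.18, 3.52 and 6.22 normalised CPM in POU5F1-high cells and 103, 86.6 and 65.1 in other germ cells. SKAP1, HOXB6, LHX1, FZD7, SCML1, KIAA2012, HOXB8 and TBX2 were the other 8 of the 12 largest decreases, with log2 fold changes from -4.30 for SKAP1 to -3.82 for TBX2.

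**Figure D2:**
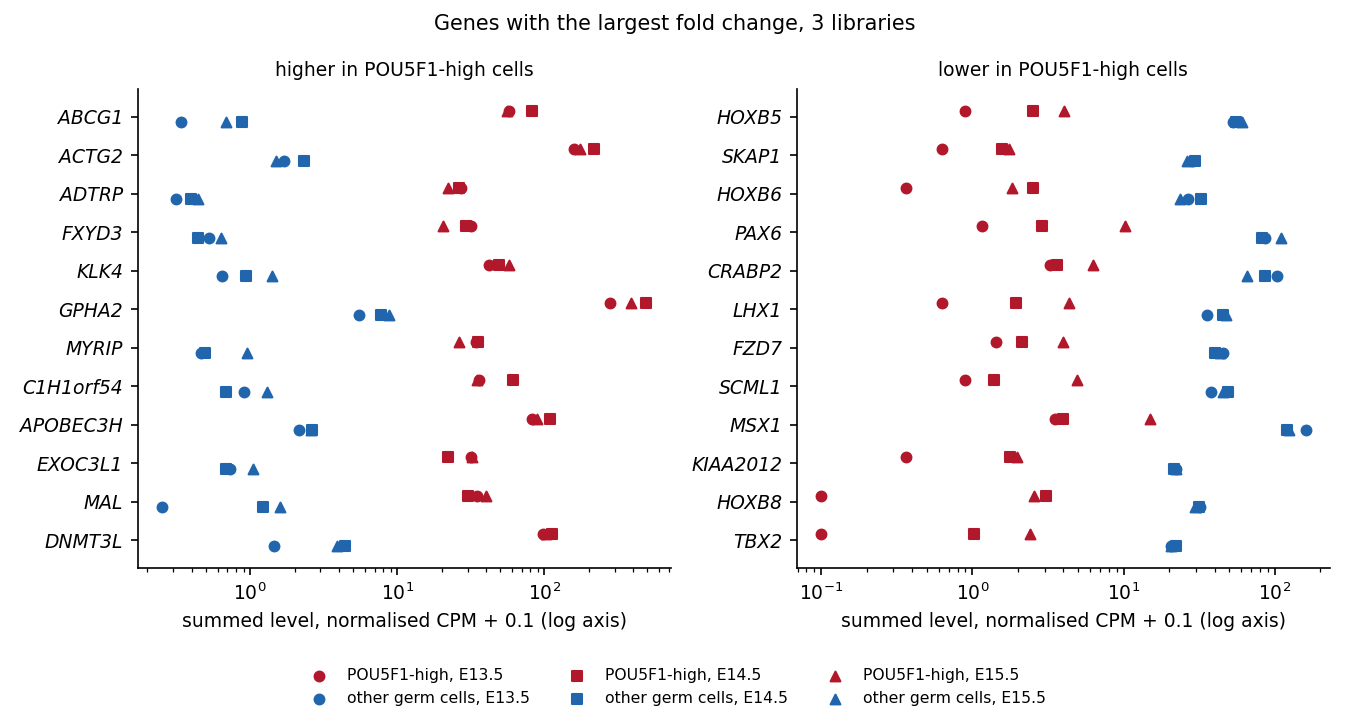
Summed level in normalised CPM plus 0.1 (log x axis) of the 12 genes with the largest increase (left) and the 12 with the largest decrease (right) in POU5F1-high cells; red, POU5F1-high cells; blue, other germ cells; the marker shape gives the library. Red and blue points do not overlap for any of the 24 genes.

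Further early germ cell markers split the groups in the same way. SOX15, an SRY-box factor, had 128, 158 and 175 normalised CPM in POU5F1-high cells and 4.06, 3.82 and 5.76 in other germ cells. PDPN, the surface glycoprotein podoplanin, was at 381, 420 and 363 normalised CPM in POU5F1-high cells and at 28.9, 28.9 and 31.3 in other germ cells. PRDM1, the transcriptional repressor BLIMP1, had 101, 92.7 and 91.3 normalised CPM in POU5F1-high cells and 19.2, 21.2 and 18.2 in other germ cells. TCL1B, a coactivator of AKT signalling, was at 181, 241 and 174 normalised CPM in POU5F1-high cells and at 7.07, 9.20 and 9.10 in other germ cells. KIT, the receptor for stem cell factor, differed least, with 177, 162 and 156 normalised CPM in POU5F1-high cells and 86.2, 78.1 and 70.3 in other germ cells (log2 fold change 1.08 ± 0.07, SE). None of these 5 genes overlapped between the groups, as was so for 68% of all genes tested.

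The pluripotency genes as a list were mostly higher, with a clear exception. Of 25 tested, 19 rose in POU5F1-high cells, 2 fell and 4 did not pass, with a median log2 fold change 1.82 above that of all genes. KHDC3L, a maternal-effect gene of the subcortical complex, had 51.6, 79.6 and 46.5 normalised CPM in POU5F1-high cells and 2.74, 4.84 and 3.36 in other germ cells. SOX2 was among those that fell, with a log2 fold change of -4.16. Of 18 germ cell specification genes, 15 rose and 1 fell, with a median 1.51 above that of all genes. The gene that fell, GATA2, a GATA-family factor, had 15.9, 6.29 and 18.3 normalised CPM in POU5F1-high cells and 60.0, 53.1 and 47.7 in other germ cells. These lists hold the genes that define early germ cells, and their members were chosen with results of these data known, so the direction is no independent finding; under library totals 18 pluripotency genes rose and 5 fell, and 11 specification genes rose and 3 fell.

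RNA-binding proteins of the later germline were not simply absent. DAZL, which binds germ cell mRNAs and promotes their translation, summed to 262, 199 and 260 CPM in POU5F1-high cells and to 443, 356 and 385 CPM in other germ cells. DDX4, the VASA helicase behind the tdTomato reporter, had 78.998, 66.1 and 74.5 CPM in POU5F1-high cells and 138, 135.4 and 129 CPM in other germ cells. On this plain CPM scale both were lower in every library without being lost. In normalised CPM, DAZL averaged 355 in cells at 200 to 1000 CPM of POU5F1 and 256 at 1000 CPM and over. Cells with no POU5F1 UMI averaged 354. DDX4 averaged 103, 82.4 and 118 normalised CPM in the same order. The size of the gap thus depended on the scaling. At 10000 UMIs per cell, a DAZL UMI was found in 84.5%, 69.1% and 83.9% of POU5F1-high cells, against 96.4%, 91.9% and 95.1% of other germ cells. The shares at full depth, 100%, 94.96% and 96.9% of POU5F1-high cells and 99.8%, 98.2% and 99.5% of other germ cells, were near their upper limit, and mouse barcodes had 6.31%, 4.83% and 8.56%. Of 17 genes of germline RNA binding and translation, 4 rose and 10 fell (median -0.32 from that of all genes); without the shared barcodes 1 of 16 rose and 10 fell. STK31, a Tudor-domain kinase of germ cells, fell to 8.47, 10.7 and 11.2 normalised CPM in POU5F1-high cells, against 65.5, 70.9 and 83.6 in other germ cells. YBX2 passed as higher on the TMM scale (log2 fold change 0.43) but stood at -0.11 under library totals, and did not pass without the shared barcodes (0.29; edgeR adjusted p = 0.066).

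Genes of the piRNA pathway, which silences transposons in the germline, were mostly lower. Of 20, 14 fell, 3 rose and 3 did not pass (median -0.79 from that of all genes). TDRD1, a Tudor scaffold of the piRNA granules, had 27.8, 26.1 and 15.6 normalised CPM in POU5F1-high cells and 119, 94.2 and 78.7 in other germ cells. TDRD7, another Tudor protein, was at 2.12, 1.85 and 4.42 normalised CPM in POU5F1-high cells and at 25.9, 27.6 and 27.1 in other germ cells. The rises of RNF17 (0.42) and GTSF1 (0.23) on the log2 scale turned to -0.12 and -0.31 under library totals.

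Meiotic genes were lower almost without exception. All 15 genes of the synaptonemal complex and meiotic cohesin that were tested fell, with a median of -1.89 from that of all genes, and 21 of 23 genes of meiotic entry and recombination fell (median -1.34; 17 of 20 without the shared barcodes). STRA8, the gatekeeper of meiotic entry, was at 1.85, 3.70 and 3.03 normalised CPM in POU5F1-high cells and at 31.0, 26.3 and 39.1 in other germ cells (log2 fold change -3.50 ± 0.17, SE; edgeR adjusted p = 1.3e-10). REC8, the meiotic cohesin subunit, had 7.68, 13.51 and 15.4 normalised CPM in POU5F1-high cells and 99.0, 82.3 and 129 in other germ cells. SYCP1, the transverse filament of the synaptonemal complex, was at 1.06, 0.185 and 3.36 normalised CPM in POU5F1-high cells and at 15.3, 28.6 and 28.3 in other germ cells. HORMAD1, SMC1B, TEX15 and MEIOC, all of the meiotic chromosome axis or meiotic entry, fell by 2.61, 2.69, 3.02 and 2.62 on the log2 scale. MLH3, a mismatch repair protein, passed as higher (0.25), was at -0.29 under library totals and did not pass without the shared barcodes (0.22; edgeR adjusted p = 0.069). ANHX, a homeobox gene, kept more transcript, with 46.9, 46.1 and 55.6 normalised CPM in POU5F1-high cells and 161, 141 and 191 in other germ cells.

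The retinoic acid, BMP and WNT lists had more genes lower than higher. Of 18 retinoic acid genes 12 fell and 3 rose (median -1.16 from that of all genes), of 22 BMP genes 16 fell and 3 rose (-0.77), and of 23 WNT genes 17 fell and 3 rose (-1.23). Under library totals the counts were 14 lower and 1 higher, 19 and 2, and 19 and 2 in the same order. RARB, a retinoic acid receptor that is itself a target of the pathway, had 6.35, 4.07 and 3.93 normalised CPM in POU5F1-high cells and 26.2, 25.6 and 25.2 in other germ cells. CRABP1, the binding protein related to CRABP2, went the other way with 10.6, 18.5 and 23.0 normalised CPM in POU5F1-high cells and 8.45, 10.9 and 11.9 in other germ cells, though its libraries overlapped. STRA6, the retinol uptake receptor, passed as higher (0.49), was at -0.05 under library totals and did not pass without the shared barcodes (0.22; edgeR adjusted p = 0.25).

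The inhibitors of differentiation, immediate targets of BMP signalling, were split on the TMM scale. ID3 had 72.0, 61.4 and 51.5 normalised CPM in POU5F1-high cells and 196, 229 and 267 in other germ cells, and ID2 50.6, 51.8 and 38.6 in POU5F1-high cells and 116, 116 and 134 in other germ cells. ID1 was higher instead on that scale, at 472, 490 and 360 normalised CPM in POU5F1-high cells and 238, 257 and 265 in other germ cells (log2 fold change 0.78 ± 0.09, SE). Its gap was narrowest in E15.5, and plain library totals set POU5F1-high cells lower against other germ cells than this scale does. The type I receptor ACVR1 rose as well, by 1.10. Among WNT genes, the nuclear factor LEF1 and the target SP5 fell by 3.44 and 3.03 on the log2 scale, while TCF7L1, the repressive factor of the same family, rose to 92.1, 115 and 103 normalised CPM in POU5F1-high cells, against 33.6, 34.3 and 41.6 in other germ cells.

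Of 28 HOX genes, 25 were lower in POU5F1-high cells and 0 higher, with a median of -2.89 from that of all genes. As a median of log2 ratios of normalised CPM + 1 within each library, which weigh low genes less, the HOX list stood at -1.76, -1.50 and -1.65, beside -1.78, -2.24 and -1.54 for the synaptonemal and cohesin list. HOXA3 was at 0.529, 3.15 and 4.01 normalised CPM in POU5F1-high cells and at 39.0, 35.7 and 36.9 in other germ cells. HOXB8 had no UMI in E13.5 POU5F1-high cells, 2.96 and 2.46 normalised CPM in those of E14.5 and E15.5, and 31.8, 31.4 and 29.6 in other germ cells. HOXB1 had no UMI in any POU5F1-high cell and 0.992 CPM in other germ cells, at least 8.45-fold lower when 3 counts over the group are taken as the limit; with that bound the list median was the same. HOXA10, HOXC5 and HOXC6 did not pass, with log2 fold changes of -0.15, -0.21 and -0.34.

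**Figure D3:**
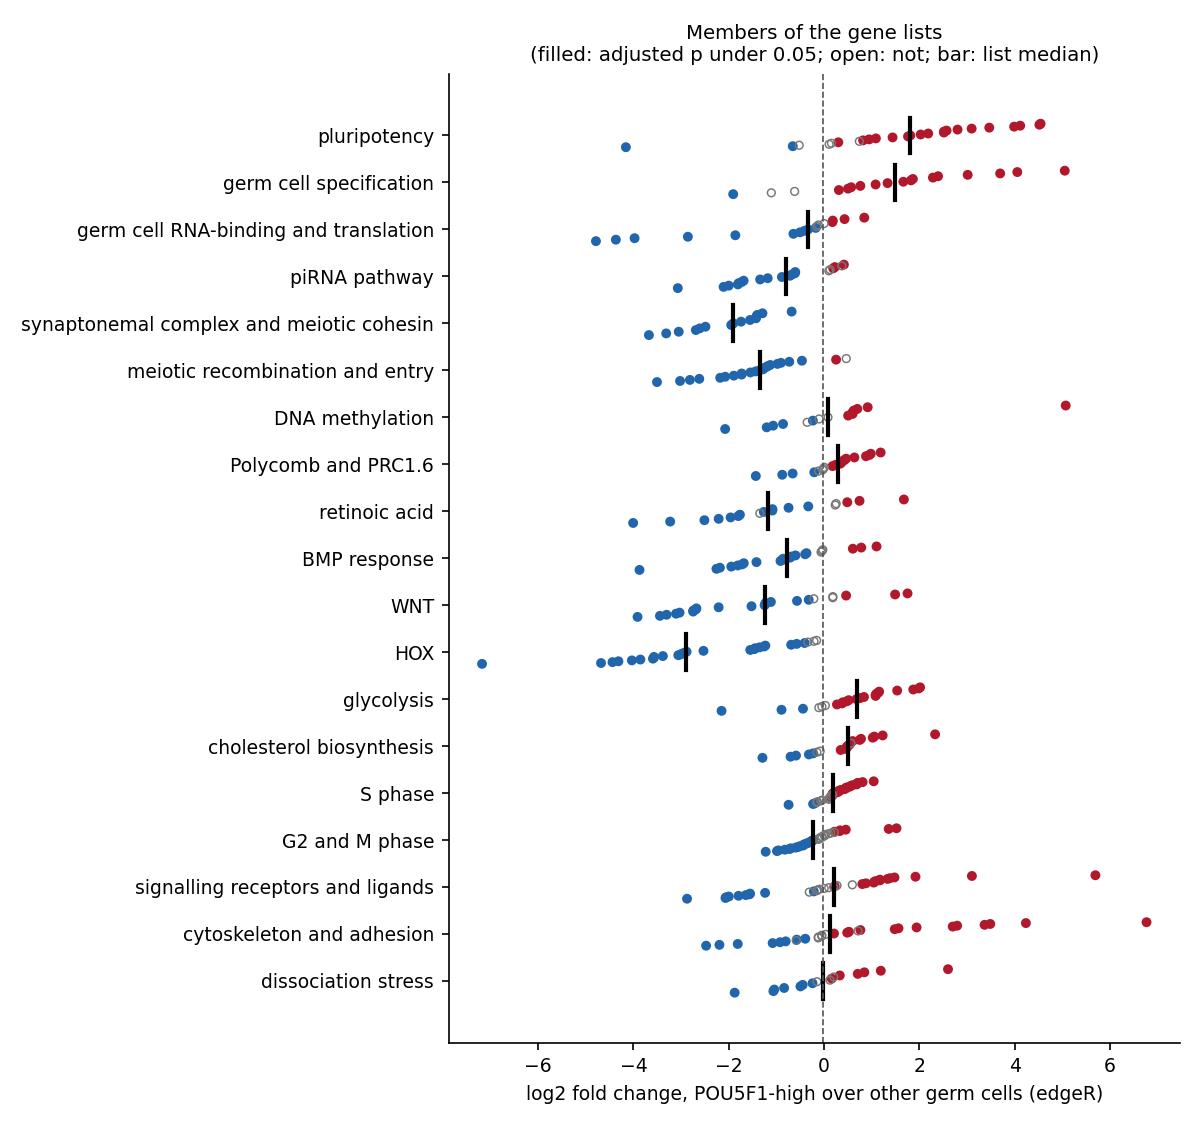
Log2 fold change of POU5F1-high over other germ cells on the TMM scale (x axis) for the tested members of the gene lists (y axis); red, higher and blue, lower at an adjusted p under 0.05; open points did not pass; black bars are list medians and the dashed line the median of all genes. HOX and meiotic lists lie left of the dashed line and the pluripotency and specification lists right of it; values of genes without UMIs in POU5F1-high cells depend on the fit.

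Chromatin and DNA methylation genes moved both ways, and their split depended on the scaling. So did that of all genes tested, with 35.4% higher and 35.4% lower on the TMM scale, and 2566 genes higher and 9620 lower under library totals. Of 15 DNA methylation genes 7 rose and 5 fell, against 1 and 8 under library totals; of 20 Polycomb and PRC1.6 genes 12 rose and 4 fell, against 3 and 10. The changes large enough to hold on both scales include DNMT3L above and the maintenance pair below. DNMT1, the maintenance methyltransferase, had 87.6, 90.7 and 82.4 normalised CPM in POU5F1-high cells and 187, 194 and 167 in other germ cells, and its partner UHRF1 13.502, 13.3 and 11.3 in POU5F1-high cells and 34.1, 28.5 and 25.8 in other germ cells. L3MBTL2, a subunit of the PRC1.6 complex that represses germline genes, rose by 1.19 on the log2 scale, and EZH2, the H3K27 methyltransferase, fell by 0.88.

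Metabolic lists leaned upward on the TMM scale. Of 23 glycolysis genes 17 rose and 3 fell (median 0.70 above that of all genes; 9 and 8 under library totals), and of 22 cholesterol synthesis genes 14 rose and 5 fell (0.51; 4 and 7 under library totals). HK1, the first kinase of glycolysis, had 72.5, 73.1 and 60.0 normalised CPM in POU5F1-high cells and 16.6, 18.8 and 16.1 in other germ cells. ALDOA, the aldolase, was at 335, 310 and 383 normalised CPM in POU5F1-high cells and at 109, 103 and 144 in other germ cells. TPI1, the triose isomerase, went down to 43.4, 43.5 and 40.3 normalised CPM in POU5F1-high cells, against 74.1, 79.2 and 80.3 in other germ cells. HMGCS1, an early enzyme of cholesterol synthesis, fell by 0.70 on the log2 scale.

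The 4 genes of apoptosis and growth arrest named here were chosen for a large change or for going the other way. Their directions therefore say nothing about such genes as a set. TP53I3, a quinone oxidoreductase, had 119, 113 and 117 normalised CPM in POU5F1-high cells and 12.4, 18.8 and 14.3 in other germ cells (log2 fold change 2.96 ± 0.11, SE; edgeR adjusted p = 4.6e-12). PHLDA3, a pleckstrin-homology protein that restrains AKT, was at 90.0, 144.5 and 93.0 normalised CPM in POU5F1-high cells and at 16.4, 23.7 and 19.4 in other germ cells. PMAIP1, the proapoptotic protein NOXA, had 111, 168 and 96.2 normalised CPM in POU5F1-high cells and 22.5, 30.2 and 25.7 in other germ cells. In all 3 genes the groups did not overlap, as was so for 68% of all genes tested. GADD45A, a growth arrest gene, fell by 1.37 on the log2 scale.

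The cell cycle lists depended on the scaling, and the G2 and M phase list also on the library. For comparison, 35.4% of all genes tested rose and 35.4% fell on the TMM scale, and library totals gave 2566 genes higher and 9620 lower. On the TMM scale, of 31 S phase genes 19 rose and 3 fell (3 and 18 under library totals), while of 35 G2 and M phase genes 6 rose and 18 fell (2 and 31 under library totals). The median log2 ratio of normalised CPM + 1 over the G2 and M phase genes was -0.33 in E13.5, -0.41 in E14.5 and 0.09 in E15.5, so E15.5 did not share the direction; over the S phase genes it was 0.14, 0.36 and 0.21. Per UMI of the cell, both lists were lower. The summed S phase genes had a median of 2767, 2609 and 2828 CPM per POU5F1-high cell, against 3625, 3430 and 3467 CPM per other germ cell. The summed G2 and M phase genes had a median of 3012, 2822 and 2676 CPM per POU5F1-high cell, against 4493, 4125 and 3853 CPM per other germ cell. AURKB, the kinase of the chromosomal passenger complex, was an exception at 40.8, 54.2 and 41.6 normalised CPM in POU5F1-high cells and 14.8, 17.3 and 15.1 in other germ cells. PLK1, the Polo-like mitotic kinase, had 32.6, 36.6 and 75.3 normalised CPM in POU5F1-high cells and 105, 121 and 114 in other germ cells, so E15.5 stood apart among POU5F1-high cells.

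The remaining 3 lists were mixed, as were all genes tested, of which 35.4% rose and 35.4% fell on the TMM scale. Of 33 signalling receptors and ligands 14 rose and 10 fell (12 and 16 under library totals), of 28 cytoskeleton and adhesion genes 13 rose and 8 fell (9 and 13), and of 16 dissociation stress genes 6 rose and 7 fell (3 and 12). DLL1, a Notch ligand, rose to 13.2, 11.8 and 14.497 normalised CPM in POU5F1-high cells, against 1.17, 1.27 and 2.05 in other germ cells, and the ligand JAG2 fell to 1.32, 4.26 and 4.996, against 15.2, 18.6 and 15.7. VIM, the intermediate filament vimentin, was at 866, 1174 and 747 normalised CPM in POU5F1-high cells and at 119, 136 and 139 in other germ cells, and KRT19, a keratin, at 19.9, 41.8 and 26.9 in POU5F1-high cells and 125, 177 and 111 in other germ cells. CLDN6, a tight junction claudin known in pluripotent cells, and FERMT1, the integrin activator kindlin-1, rose by 3.49 and 4.24 on the log2 scale. IER3, an immediate early gene, had 40.0, 81.4 and 69.9 normalised CPM in POU5F1-high cells and 9.77, 9.004 and 11.9 in other germ cells.

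The POU5F1-high cells also varied among themselves with the level of POU5F1. Cells at 1000 CPM and over were compared with those at 200 to 1000 CPM in the same way, over 12055 genes. At an adjusted p under 0.05, 1741 genes were higher (14.4%) and 1817 lower (15.1%) in cells at 1000 CPM and over, of which 260 (2.16%) and 631 (5.23%) by at least 2-fold. Those called in either direction were 29.5% of genes tested, and for 33.3%, whether or not they passed, the libraries did not overlap. These counts move with the tool and the scaling: DESeq2 called 894 higher and 648 lower, library totals gave 952 and 3587, the fit without the library as a block 957 and 1041, the fit without the E15.5 library 1235 and 1149, and cells thinned to 10000 UMIs 698 and 533. Without the shared barcodes they were 1752 and 1689. Doublets were not removed from either group, and a droplet with a POU5F1-high and another germ cell could fall at 200 to 1000 CPM; those cells had a median of 51813, 48165 and 56404 UMIs, and cells at 1000 CPM and over 67512, 46897 and 50712. Their part in the result was not tested.

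Most early germ cell genes that passed were higher in the cells with the most POU5F1. GPHA2 had 324, 522 and 471 normalised CPM at 1000 CPM and over, and 88.6, 117 and 144.7 at 200 to 1000 CPM. SOX17, given here as a description, averaged 178 ± 17.1 normalised CPM at 1000 CPM and over and 60.6 ± 15.52 at 200 to 1000 CPM (SD, n = 3 libraries each). C1H1orf54, HTRA1, IFI16, PSORS1C2 and ABCG1 were the other 5 of the 6 genes with the largest increase, with log2 fold changes from 2.23 for C1H1orf54 to 1.91 for ABCG1. HTRA1, a secreted serine protease, was at 24.9, 40.0 and 45.6 normalised CPM at 1000 CPM and over and at 9.45, 12.4 and 8.92 at 200 to 1000 CPM. IFI16, a DNA sensor, had 23.1, 40.0 and 16.9 normalised CPM at 1000 CPM and over and 2.36, 14.1 and 3.96 at 200 to 1000 CPM. The pluripotency list counts NANOG among its higher genes, and the specification list TFAP2C, NANOS3 and SOX17. These genes served to check the label, so the direction of both lists is no independent finding. Over all genes tested, 14.4% were higher and 15.1% lower. Of 20 pluripotency genes 12 were higher and 1, LIN28B, lower, and of 16 specification genes 13 were higher and 2 lower (11 and 4, and 11 and 3, under library totals). The lower ones were GATA2 and DPPA3, the oocyte and germ cell factor STELLA, at 7.44 ± 2.40 normalised CPM at 1000 CPM and over and 40.4 ± 8.14 at 200 to 1000 CPM (log2 fold change -2.27 ± 0.19, SE; edgeR adjusted p = 1.9e-07). KIT was at 138 ± 3.94 normalised CPM at 1000 CPM and over and 142 ± 20.2 at 200 to 1000 CPM (adjusted p = 0.84).

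Another set of genes was lower at 1000 CPM and over than at 200 to 1000 CPM. ASB9, a SOCS-box ubiquitin ligase adaptor, had 6.14, 9.95 and 8.61 normalised CPM at 1000 CPM and over and 75.6, 100.04 and 57.3 at 200 to 1000 CPM. DLK1, an imprinted Notch-like protein, was at 1.44, 2.33 and 2.06 normalised CPM at 1000 CPM and over and at 5.32, 53.6 and 27.9 at 200 to 1000 CPM. At 200 to 1000 CPM, DLK1 varied far more between libraries than ASB9 did. CCDC109B, FDX1, IGDCC3 and NT5DC2 complete the 6 largest decreases, with log2 fold changes from -3.11 for CCDC109B to -2.46 for NT5DC2. Of 12 synaptonemal and cohesin genes 10 were lower at 1000 CPM and over, of 16 genes of meiotic entry and recombination 9, of 13 retinoic acid genes 8, of 20 BMP genes 12, of 19 HOX genes 12 and of 35 G2 and M phase genes 25. By the same test 15.1% of all 12055 genes were lower. Under library totals the lower counts were 11, 9, 9, 14, 13 and 32 in the same order, and 3587 over all genes. In these 6 lists the genes higher at 1000 CPM and over were ID1 of the BMP list and CKS1B of the G2 and M list, and under library totals neither list had a higher gene.

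The change was visible cell by cell. A STRA8 UMI was found in 0 of 43, 3 of 108 and 6 of 161 cells at 1000 CPM and over, against 4 of 28, 8 of 31 and 19 of 93 at 200 to 1000 CPM. Among other germ cells it was found in 315 of 466, 215 of 397 and 581 of 859 cells. The exact 95% binomial intervals of E15.5 were 1.38 to 7.93% at 1000 CPM and over, 12.8 to 30.1% at 200 to 1000 CPM and 64.4 to 70.8% under 200 CPM, and cover counting error only. A SOX2 UMI was seen in 0 of 43, 0 of 108 and 0 of 161 cells at 1000 CPM and over, for which the upper 95% bounds are 8.22%, 3.36% and 2.27%, and in 1 of 28, 0 of 31 and 9 of 93 cells at 200 to 1000 CPM. Among other germ cells it was seen in 158 of 466, 78 of 397 and 287 of 859 cells. Without the shared barcodes, a STRA8 UMI was found in 0 of 42, 3 of 108 and 6 of 161 cells at 1000 CPM and over, 4 of 27, 8 of 31 and 16 of 85 at 200 to 1000 CPM and 123 of 201, 183 of 339 and 345 of 523 other germ cells. A SOX2 UMI was then found in 0 of 311 cells at 1000 CPM and over, 8 of 143 at 200 to 1000 CPM and 291 of 1063 other germ cells.

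Across all germ cells in 5 bins of POU5F1, 3 genes chosen after their values were seen did not follow POU5F1 in 1 direction. TP53I3 averaged 9.65, 17.7, 78.3, 158 and 96.5 normalised CPM in cells with no POU5F1 UMI, under 50 CPM, at 50 to 200 CPM, at 200 to 1000 CPM and at 1000 CPM and over. Its peak lay at 200 to 1000 CPM in each of the 3 libraries. APOE, the lipid carrier apolipoprotein E, averaged 850, 1058, 1905, 1833 and 843 normalised CPM over the same bins, with its top in the 2 middle bins in each library. PIWIL4, the nuclear PIWI protein of fetal male germ cells in mice, averaged 3.06, 11.2, 22.1, 2.05 and 11.3. In cells at 1000 CPM and over PIWIL4 was alike in all libraries (10.2, 11.5 and 12.1), above its 0, 2.68 and 3.47 at 200 to 1000 CPM. At 50 to 200 CPM it was 2.496 in E13.5 but 34.1 and 29.7 in E14.5 and E15.5. That bin held only 24, 36 and 61 cells, and PIWIL4 at 200 to 1000 CPM rests on 22 UMIs over the 3 libraries. Both sets of values are thus limited by depth.

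**Figure D4:**
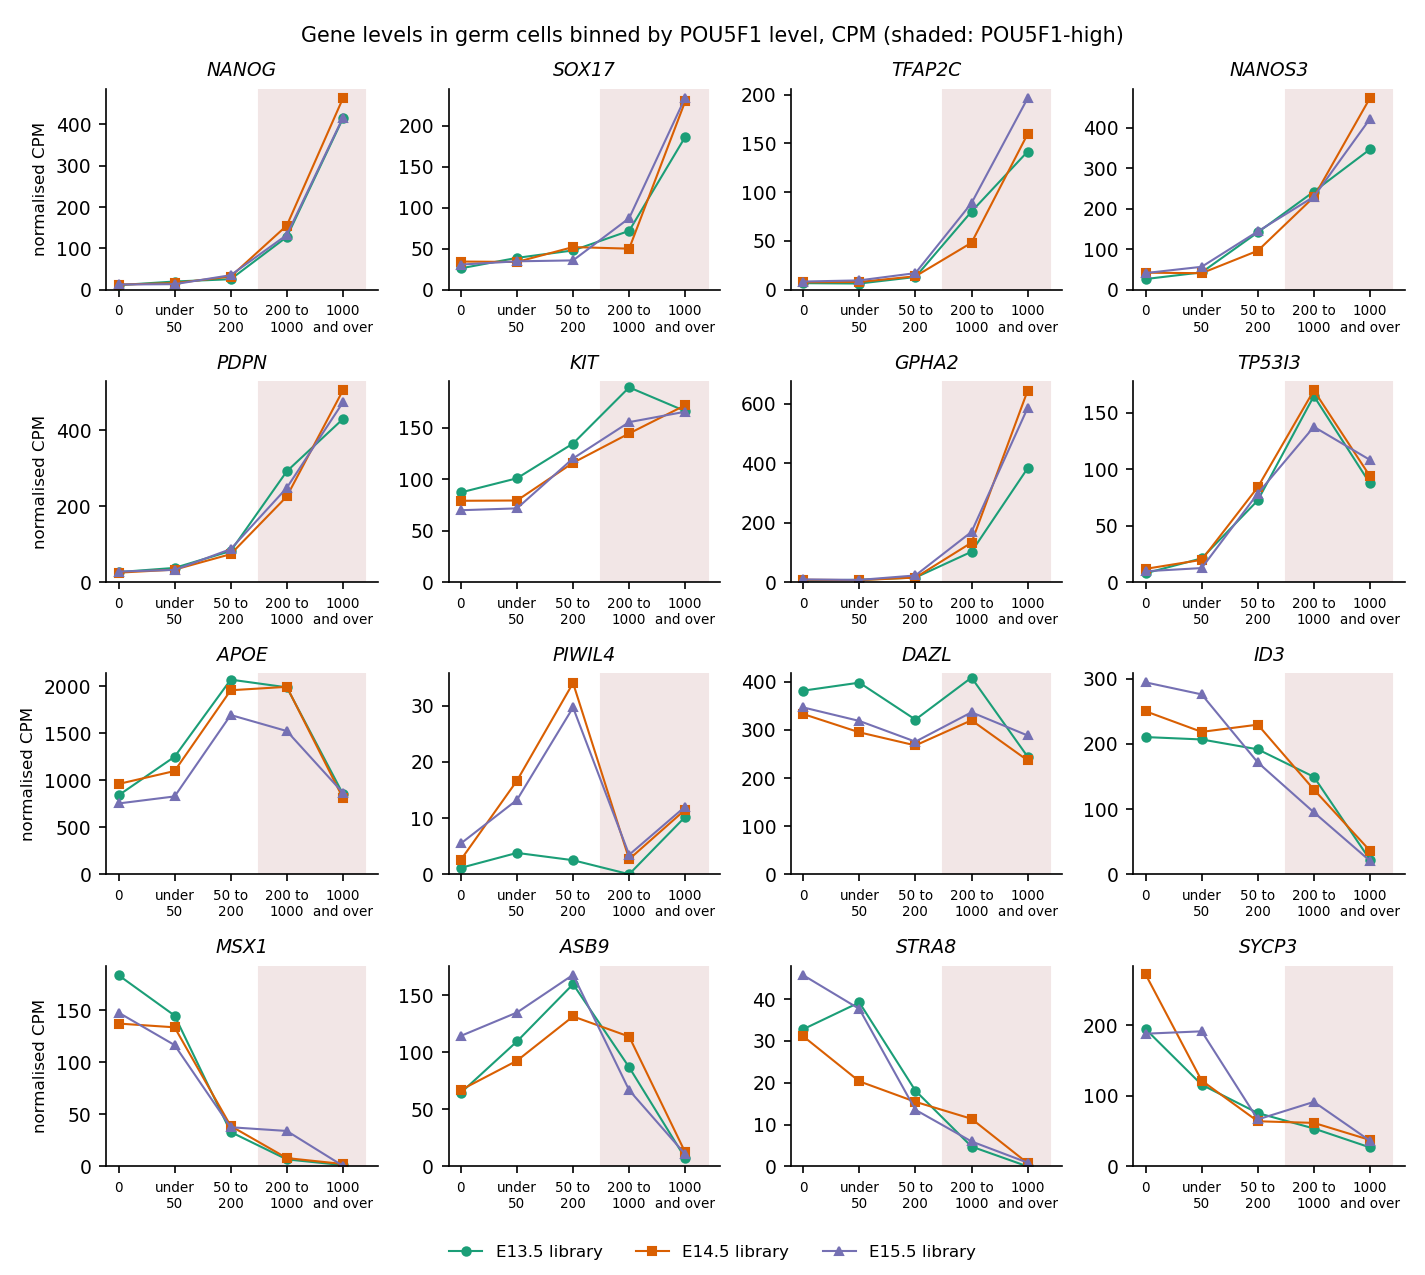
Level in normalised CPM (y axis, scaled per gene from 0) of 16 genes in germ cells grouped by POU5F1 level in CPM (x axis), 1 line per library; the shaded bins are POU5F1-high cells. NANOG, SOX17, TFAP2C, NANOS3, PDPN and GPHA2 climb with POU5F1, ID3, MSX1 and STRA8 decline over the bins as averages, SYCP3 is lowest at 1000 CPM and over in each library, and TP53I3 and APOE have their highest point in a middle bin in each library.

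The share of POU5F1-high cells among germ cells differed between the libraries. With exact 95% Clopper-Pearson intervals, it was 13.2% in E13.5 (10.5 to 16.4%), 25.9% in E14.5 (22.3 to 29.9%) and 22.8% in E15.5 (20.4 to 25.4%). Without the shared barcodes, which are mostly other germ cells of E13.5 and E15.5, the shares were 25.6%, 29.1% and 32.0%, and E13.5 no longer stood well below the others. With 1 library per mouse age, the age, the culture and the library cannot be told apart and no test is given.

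Few genes differed between the POU5F1-high cells of the libraries, and how few depended on whether cells were thinned. By a rule of at least 2-fold and 20 CPM in 1 library, on CPM + 1, E14.5 over E13.5 gave 22 genes higher (0.343%) and 22 lower (0.343%) of 6422, E15.5 over E13.5 8 higher (0.121%) and 17 lower (0.257%) of 6614, and E15.5 over E14.5 18 higher (0.276%) and 25 lower (0.384%) of 6513. With every cell thinned to 10000 UMIs, the counts were 72 higher and 139 lower for E14.5 over E13.5 and 90 and 51 for E15.5 over E13.5. At full depth, no pluripotency or germ cell specification gene reached 2-fold in any of the 3 pairs. With at most 0.384% of all genes past the rule in a direction, this count is near the share of all genes. Most other lists had none either. The pairs share libraries and are not independent of each other.

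CYP1B1, a cytochrome P450 induced through the aryl hydrocarbon receptor, was the gene most raised in E15.5. It had 7.14 CPM (95% Poisson interval 4.88 to 10.1), 5.03 (3.51 to 7.00) and 30.1 (27.3 to 33.1) in POU5F1-high cells. Other germ cells had 5.36, 6.44 and 14.47 CPM, also highest in E15.5, and mouse barcodes 1.43, 2.49 and 2.67 CPM. Within E15.5, CYP1B1 was at 38.0 CPM in cells at 1000 CPM and over and at 18.0 CPM in those at 200 to 1000 CPM. IGFBP2, a binding protein of insulin-like growth factors, was at 20.3, 65.7 and 38.1 CPM in POU5F1-high cells, lowest in E13.5. ESX1, a homeobox gene known from placenta and testis, had 21.2, 49.7 and 50.9 CPM, and PAGE1, of a cancer-testis antigen family, 15.4, 34.5 and 38.2 CPM. In other germ cells ESX1 was at 76.3, 73.1 and 84.1 CPM and PAGE1 at 334, 382 and 378 CPM, with no such step from E13.5. PAGE1 was lower at 1000 CPM and over than at 200 to 1000 CPM in each library, with 8.26, 20.6 and 13.7 CPM at 1000 CPM and over and 28.5, 80.3 and 75.8 CPM at 200 to 1000 CPM. Without the shared barcodes, the log2 ratio of PAGE1 in E15.5 over E13.5 was 0.75, short of 2-fold.

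Other E15.5 differences lay in the cells at 200 to 1000 CPM for PLK1 and FAM83D, and in both bins for TBX1 and BRK1. PLK1 had 27.4, 28.5 and 65.2 CPM in POU5F1-high cells. Within cells at 1000 CPM and over it was 24.1, 25.1 and 29.5 CPM, and within cells at 200 to 1000 CPM 33.6, 39.5 and 120.0 CPM. FAM83D, a spindle protein, showed the same with 9.99, 6.37 and 9.61 CPM at 1000 CPM and over and 20.3, 12.4 and 40.6 CPM at 200 to 1000 CPM. TBX1, a T-box factor, was at 39.9, 23.3 and 53.3 CPM in POU5F1-high cells, and in E15.5 at 52.1 CPM at 1000 CPM and over and 55.1 CPM at 200 to 1000 CPM. BRK1, a subunit of the WAVE actin complex, was at 37.5, 14.4 and 35.5 CPM, and in E15.5 at 36.6 CPM at 1000 CPM and over and 33.8 CPM at 200 to 1000 CPM, so it was E14.5 that stood low. IFI16 was at 15.2, 30.6 and 11.6 CPM, highest in E14.5. GMFG, H2AC25 and CENPV were the other genes named as higher by size.

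Histone genes were among the largest decreases in E15.5. H3C2, a replication-dependent histone H3 gene, had 26.3, 30.8 and 9.08 CPM in POU5F1-high cells and 30.5, 31.7 and 6.41 CPM in other germ cells. H1-6, the testis linker histone, had 29.5, 28.5 and 8.79 CPM in POU5F1-high cells and 27.6, 31.5 and 15.9 CPM in other germ cells, and H1-4 310, 372 and 159 CPM in POU5F1-high cells and 375, 411 and 176 CPM in other germ cells. The low value of E15.5 was thus found in both groups. RPL32, RPS27, RPL27A, PPIA and H3F3A also were lower by 2-fold or more in a pair of POU5F1-high libraries, and other germ cells moved the same way (for RPL27A with a log2 ratio of -0.81, short of 2-fold). These genes have many near-identical copies, between which reads can be split, and are uncertain. JUN, an immediate early factor, had 11.2, 24.9 and 5.46 CPM in POU5F1-high cells and 23.0, 48.9995 and 35.0 CPM in other germ cells, against 2975, 2743 and 2669 CPM in mouse barcodes in the same libraries; the part of free mouse RNA was not tested. RBP7, CRELD2 and RASSF3 were the remaining genes named as lower by size.

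**Figure D5:**
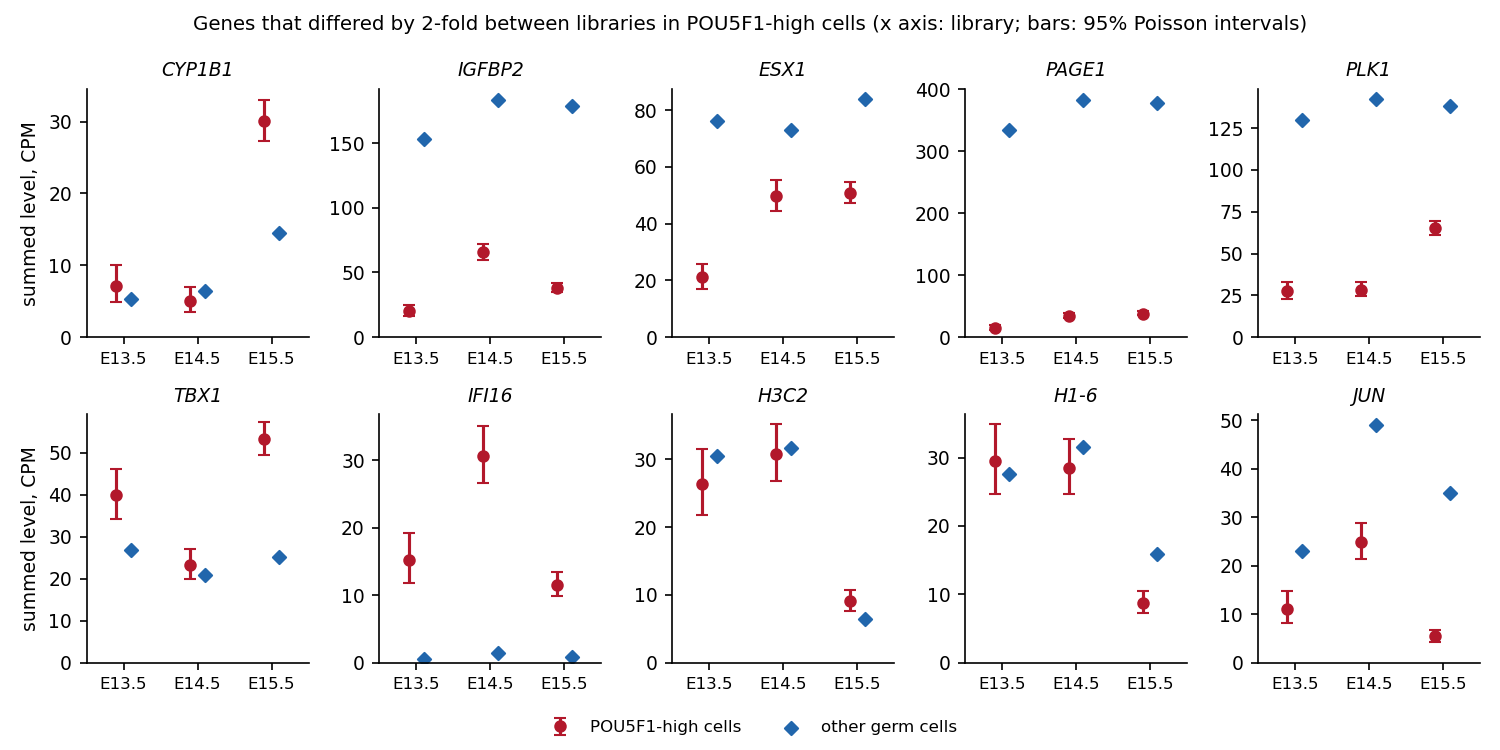
Summed level in CPM (y axis, from 0) of 10 genes that differed by 2-fold or more between POU5F1-high cells of the libraries of E13.5, of E14.5 and of E15.5 (x axis); red points, POU5F1-high cells with 95% Poisson intervals for counting error; blue diamonds, other germ cells. CYP1B1 is highest and H3C2 and H1-6 are lowest in E15.5 in both groups, and ESX1 and PAGE1 are lowest in E13.5 in POU5F1-high cells.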

How the data were processed

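The deposited values are UMI counts per gene and barcode, 1 matrix per library, and the authors' counting tool, Cell Ranger 6.0.1, is named in the submitters' processing notes and the headers; the genome build is not given in the sources used here. Mouse barcodes carry counts on the same features. RefSeq symbols were used for names only and gave a symbol to 669 of 9282 features that begin with LOC, of 26017.

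From these counts, germ cells were chosen as stated in the report and summed per library and cell group, giving 6 sums with 2 residual degrees of freedom. The sums were tested with edgeR 4.0.16 (R 4.3.3; filterByExpr, TMM, quasi-likelihood test, library as block, Benjamini-Hochberg threshold 0.05), leaving out POU5F1 and the 13 mitochondrial genes. Normalised CPM are on the TMM scale; CPM without that word are per summed UMIs. DESeq2 1.42.0 was an alternative. Between libraries, log2 ratios of CPM + 1 carry no test. No doublet caller was run. The labels do not give separate cultures beyond the mouse age, so p-values measure the spread between these libraries.

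The members, the 20 gene lists (464 of 475 genes in the files) and the tests were chosen with earlier results of these data known. Genes named are the early markers, the 12 largest increases and 12 largest decreases past the threshold at 20 CPM or more (6 each among POU5F1-high cells, 5 each per pair of libraries), and from each list up to 4 members with the largest change at 10 CPM or more plus up to 2 that went the other way. Other named genes were picked after their values were seen. Intervals are exact 95% Clopper-Pearson or Poisson intervals, and the limit for a count of 0 in a sum is 3 counts. Some genes and 1 list are not reported here.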

Additional observations from a re-analysis of the deposited data

Results flagged for a closer look

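YBX2, a germ cell Y-box RNA-binding protein, moved in opposite directions between libraries when POU5F1-high cells were set against other germ cells. Its log2 ratio was -0.13 in E14.5, against 0.82 in E13.5 and 0.48 in E15.5. The difference between the libraries was not tested, and each is 1 library.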

How the results depend on the processing

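Between POU5F1-high and other germ cells, library totals gave 2566 genes higher and 9620 lower, equal weight to each cell 2516 and 9717, and cells thinned to 10000 UMIs 3726 higher. Leaving out 1 library gave 4587 to 5318 higher and 5277 to 5562 lower. Between cells at 1000 CPM and over and at 200 to 1000 CPM, the counts higher and lower were 952 and 3587 by library totals, 939 and 2960 with equal weight to each cell, 894 and 648 by DESeq2 and 698 and 533 in thinned cells; leaving out 1 library gave 1235 to 1794 and 1149 to 1826. Without the library as a block these counts were 957 and 1041, and 5004 and 5017 for POU5F1-high against other germ cells; the block is the library itself, since each holds both sums. Under library totals and equal weight, YBX2 turned to -0.11 and -0.10, RNF17 to -0.12 and -0.18, GTSF1 to -0.31 and -0.30, MLH3 to -0.29 and -0.35 (-0.018 in thinned cells) and STRA6 to -0.046 and -0.12. The cytoskeleton list's median turned to -0.11 in thinned cells and -0.020 against cells without a STRA8 UMI. Of the other log2 fold changes of named genes over all alternatives, 2143 kept direction and side of the threshold and 46 lost the threshold, among them YBX2, MLH3, STRA6, CCNE2 and SLBP without the shared barcodes. Between libraries, thinned cells gave 72 higher and 139 lower for E14.5 over E13.5, 90 and 51 for E15.5 over E13.5, and 49 higher for E15.5 over E14.5. A minimum of 50 CPM gave 8 and 7, 2 and 5, and 4 and 5 for the same pairs. For E15.5 over E13.5, equal weight and a POU5F1 threshold of 100 CPM gave 4 higher each and a threshold of 400 CPM 16; for E15.5 over E14.5, TMM factors gave 8 higher and DESeq2 size factors 8 higher and 38 lower. Without shared barcodes, an alternative chosen after seeing the data, the shares were 25.6% in E13.5 and 32.0% in E15.5. The cause of these changes was not tested. Genes near a few UMIs per sum are limited by depth.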

Other observations

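Barcodes of 1000 to 10000 UMIs with 2 to 20% mitochondrial UMIs, which the report's comparisons do not use, numbered 190 in E13.5, 33 in E14.5 and 258 in E15.5. Of these, 148, 20 and 230 were barcodes listed in another library as well. A POU5F1 UMI was found in 8, 2 and 6 of them (4.21%, 6.06% and 2.33%), against 1.601%, 1.91% and 5.17% of mouse barcodes over the same range of UMIs.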
